A study of Mus musculus with 2 samples.

Results

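The genes examined were 9 genes of cyclic AMP (cAMP) and G-protein signalling that are enriched in the projection neurons of the striatum: Adora2a, Gpr6, Gnal, Adcy5, Ppp1r1b, Pde10a, Pde1b, Rgs9 and Rasd2. They were chosen by name, with earlier results of these data known, from the 19447 named genes of a whole mouse genome array. Each of their 16 probes was read separately. Two-colour arrays were hybridized with brain RNA of female C57BL/6J dams, 8 weeks old, taken on postpartum day 0. TDAG51-/- brain, in Cy3, was compared with TDAG51+/+ brain, in Cy5, by 1 array and with TDAG51-/-Tg2 brain, also in Cy5, by the second. TDAG51, listed as Phlda1 on the array, is a stress-inducible protein with a pleckstrin homology-like domain. TDAG51-/-Tg2 dams lack the endogenous gene as well and carry a TDAG51 transgene, from 1 line, under the BAI1-AP4 promoter, which drives expression in the brain and mainly in the cerebral cortex and hippocampus. The tissue was whole brain, and the number of dams behind each sample was not stated.

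Projection neurons of the striatum integrate cortical and dopaminergic input largely through cAMP. In the neurons of the indirect pathway, the adenosine receptor of type 2a activates the olfactory-type stimulatory G protein, Gαolf, which in turn activates adenylyl cyclase 5, and the resulting cAMP activates protein kinase A and the phosphorylation of DARPP-32. Phosphodiesterases end the signal by hydrolysing cAMP and cGMP, and RGS9 and the small G protein Rhes, the product of Rasd2, limit signalling at the level of the G protein.

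The sequences of 5 probes are printed here because their readings depart from the rest of the group or come from adjacent positions of 1 gene. All 5 are 60 bases long, and positions are those given by the array's design on the assembly mm7. The dimmer Adora2a probe (chr10:74988878-74988937) differed in ratio from the brighter one of the same gene, the Gpr6 probe (chr10:40887490-40887549) was not detected, and the Ppp1r1b probe (chr11:98464535-98465909) had the ratio nearest to 0. The Ppp1r1b positions span 1375 bases and so cross at least 1 intron, and that probe had the highest GC content of the group (70.0%, against a median of 44.2% over the 16 probes). The Adcy5 probes are adjacent in the genome (chr16:34974195-34974254 and chr16:34974255-34976923), and the latter crosses an intron.
Adora2a NM_009630: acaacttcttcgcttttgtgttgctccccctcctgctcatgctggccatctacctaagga
Gpr6 NM_199058: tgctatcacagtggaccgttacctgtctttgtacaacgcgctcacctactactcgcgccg
Ppp1r1b NM_144828: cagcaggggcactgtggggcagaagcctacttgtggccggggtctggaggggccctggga
Adcy5 NM_001012765, first: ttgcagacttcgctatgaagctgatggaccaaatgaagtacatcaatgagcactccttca
Adcy5 NM_001012765, second: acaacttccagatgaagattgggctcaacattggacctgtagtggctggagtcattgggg

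The Phlda1 probe gave an intensity of 350 in TDAG51-/- and 7283 in TDAG51+/+ brain, both well above background, and after normalization the level was 17.3-fold lower in TDAG51-/- brain. On the second array it gave 44.1 in TDAG51-/- and 50.5 in TDAG51-/-Tg2 brain, neither well above background. The TDAG51-/- channels thus differed for this probe, being above background on 1 array and not on the other, and the cause was not tested. The authors report expression of the transgene in the brain of this line by RT-PCR and immunofluorescence. From this probe, a transgene not expressed in the sample and one not matched by the probe cannot be told apart. The label of the TDAG51-/-Tg2 sample was therefore not checked by it. Each comparison rests on 1 array without a dye swap, so the spread between dams was not measured and no test across animals was possible. The errors given below are the scanner software's own errors of a single spot. They belong to the scanner's own log ratio, which for dim probes differed from the ratio printed here. The SD of the log2 ratio between repeated spots of a probe was 0.06 in both arrays (median over 245 probes). In an RNA sample of whole brain, fewer cells of a type and less RNA per cell cannot be told apart.

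Of the 9 genes, 8 had a spot well above background on both arrays. By the brightest probe of each gene, 5 of these 8 were at least 2-fold lower in TDAG51-/- than in TDAG51+/+ brain, while 4.9% of the 17308 genes above background were that low and 4.55% were that much higher. Likewise, 5 of 8 were at least 2-fold lower in TDAG51-/- than in TDAG51-/-Tg2 brain, against 4.08% of 17043 genes lower and 4.42% higher. These 5 genes were Adora2a, Pde10a, Pde1b, Rgs9 and Rasd2 in both comparisons, which share the TDAG51-/- genotype. None of the 8 was at least 2-fold higher. Because the 9 genes were chosen with earlier results of these data known, these counts are no independent test of the group. The authors list Adora2a, Gnal, Pde10a and Rasd2 among the genes lower in TDAG51-/- brain on these arrays. Gnal was under 2-fold here by its brightest probe, and the folds the authors list for it correspond to a dim probe described below. The median log2 ratio of the 8 genes was -1.17 against TDAG51+/+ and -1.05 against TDAG51-/-Tg2, beside medians of -0.01 and 0.01 over all genes. Among single probes, 6 of 15 were at least 2-fold lower than in TDAG51+/+ brain (4.42% of all probes) and 7 of 15 were at least 2-fold lower than in TDAG51-/-Tg2 brain (3.86% of all probes).

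**Figure D1:**
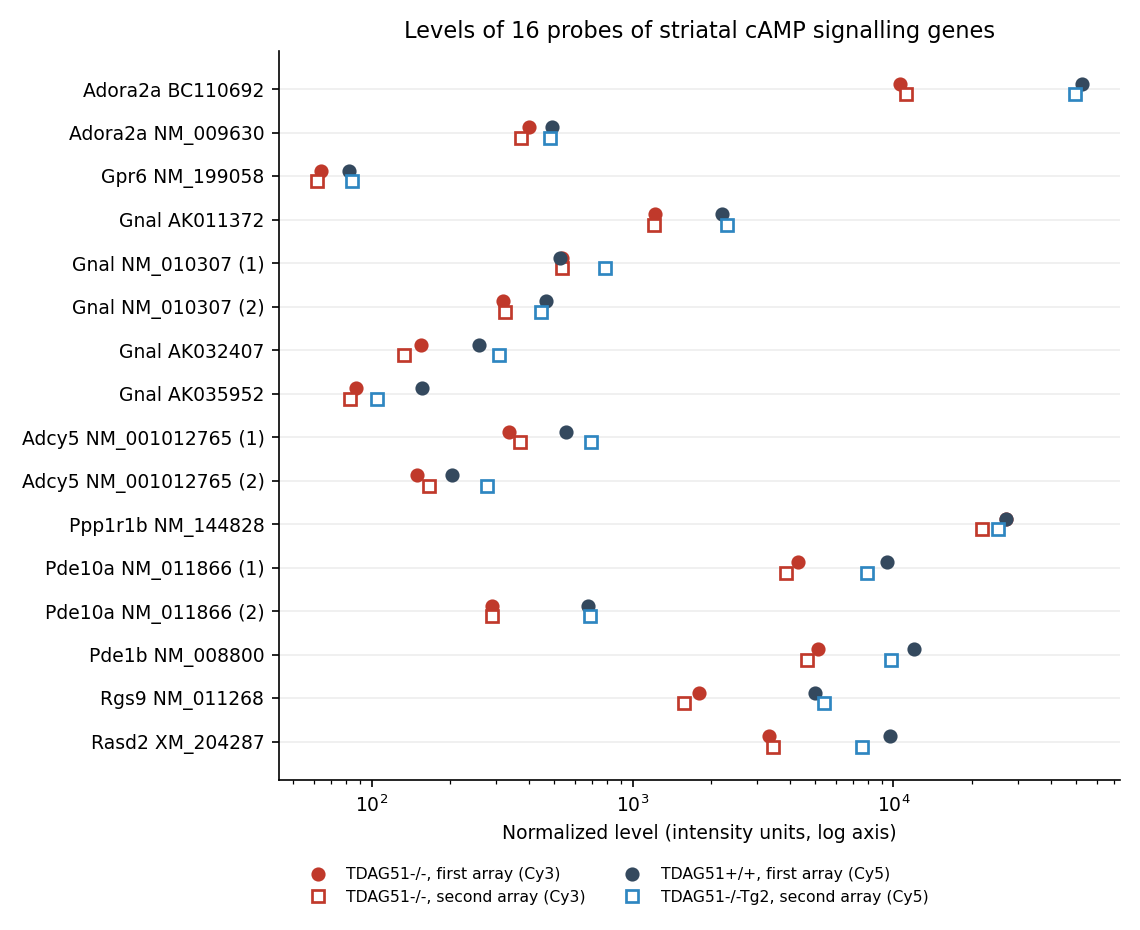
Normalized level of each of the 16 probes (log axis, intensity units) in TDAG51-/- brain on both arrays (red), TDAG51+/+ brain (dark circles) and TDAG51-/-Tg2 brain (blue squares), with 1 point per channel and no replicates. Levels may be compared along a line and not between probes; the brightest Adora2a probe read 10603 and 11145 in TDAG51-/- brain against 52572 and 49524 in the controls, and the Gpr6 probe was not above background.

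Of the receptors, Adora2a, which encodes the adenosine receptor of type 2a, had the largest difference of the 8 detected genes. Its brighter probe (BC110692, chromosome 10, 74990257 to 74990317) had a normalized level, that is the intensity after background correction and normalization on a scale shared by both arrays, of 10603 in TDAG51-/- and 52572 in TDAG51+/+ brain on the first array. On the second array, the level was 11145 in TDAG51-/- and 49524 in TDAG51-/-Tg2 brain. Both readings in TDAG51-/- brain thus lay below both control readings. The readings of a dye are not replicates, since TDAG51-/- was always in Cy3 and may be the same RNA. How many of all genes share this order was not counted. The log2 ratio was -2.31 ± 0.29 (scanner error, 1 spot) against TDAG51+/+, a 4.96-fold lower level, and -2.15 ± 0.28 against TDAG51-/-Tg2, a 4.44-fold lower level. Only 61 of the 17308 genes had a lower ratio in the first comparison and 69 of 17043 in the second. In the control channels, 18 of 55 pixels of this spot in TDAG51+/+ and 13 of 63 in TDAG51-/-Tg2 were at the scanner's limit, although the scanner did not mark the spot as saturated. The control readings of this probe are therefore capped, and its folds and ranks, and its distance from the other Adora2a probe, may be understated.

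The second Adora2a probe (NM_009630), which lies 1319 bases away from the bright one, gave a much smaller difference. Its levels were 400.3 in TDAG51-/- and 491 in TDAG51+/+ brain, and 374 in TDAG51-/- and 482 in TDAG51-/-Tg2 brain. The log2 ratios were -0.30 ± 0.21 and -0.37 ± 0.21. The 2 probes of Adora2a thus pointed the same way but differed in log2 ratio. The difference was 2.01 against TDAG51+/+ (error of the difference 0.36) and 1.79 against TDAG51-/-Tg2 (error 0.35). With the normalization used here, it was the largest disagreement between probes of a gene in this group. By the deposited ratio against TDAG51+/+, the Gnal probes spread more widely, from -2.23 to 0.05, beside -2.29 and -0.40 for Adora2a. Which transcripts each probe detects was not tested.

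Gpr6, an orphan receptor that raises cAMP without a known ligand and is found mainly in neurons of the indirect pathway, was not measured. The mean intensities of its single probe were 47.1 in TDAG51-/- and 61.9 in TDAG51+/+ brain over backgrounds of 42.0 and 36.0, and 47.4 in TDAG51-/- and 68.9 in TDAG51-/-Tg2 brain over 44.0 and 37.0. None of these 4 readings was well above background, so no fold is given.

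Gnal encodes Gαolf, which replaces the widely expressed Gαs as the stimulatory G protein of striatal projection neurons. It was represented by 5 probes on chromosome 18. The brightest of them (AK011372, 67616720 to 67616779) read 1219 in TDAG51-/- against 2198 in TDAG51+/+ brain and 1204 in TDAG51-/- against 2301 in TDAG51-/-Tg2 brain. The log2 ratios were -0.85 ± 0.22 and -0.93 ± 0.22, or 1.80-fold and 1.91-fold lower. Gnal by this probe was therefore under the 2-fold threshold in both comparisons. It passed that threshold in both only when normalization was omitted, with log2 ratios of -1.07 and -1.18.

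The other Gnal probes ranged more widely. The probe of NM_010307 whose positions (67527892 to 67583682) span 55791 bases, and therefore cross at least 1 intron, read 535 in TDAG51-/- and 526 in TDAG51+/+ brain, a log2 ratio of 0.03 ± 0.20. On the second array, it read 535 in TDAG51-/- and 786 in TDAG51-/-Tg2 brain, a log2 ratio of -0.56 ± 0.21. It was the only one of the 15 probes above background with a ratio above 0, and the TDAG51-/-Tg2 reading stood 1.49-fold above the TDAG51+/+ reading. The second probe of NM_010307 (67605824 to 67605883) gave -0.55 ± 0.21 and -0.45 ± 0.21, the probe of AK032407 (67534691 to 67534750) gave -0.74 ± 0.23 and -1.21 ± 0.27, and that of AK035952 (67584603 to 67584662) gave -0.84 ± 0.32 and -0.33 ± 0.40.

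The latter 2 Gnal probes were dim, with levels of 154 and 87.4 in TDAG51-/- brain on the first array, and their ratios depended on the treatment of background. In the log2 ratio deposited by the authors, they were -1.10 and -2.23 against TDAG51+/+, and -1.78 and -1.26 against TDAG51-/-Tg2. The folds that the authors list for Gnal correspond to the deposited ratios of the dimmer of these 2 probes. For the dimmer of them, the scanner's own ratio, to which the printed errors belong, was -2.18 against TDAG51+/+ and -1.03 against TDAG51-/-Tg2. Across the 5 probes, the log2 ratio ranged from -0.85 to 0.03 (median -0.74) in the first comparison and from -1.21 to -0.33 (median -0.56) in the second. The span was 0.88 in both, with errors of 0.30 and 0.49.

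**Figure D2:**
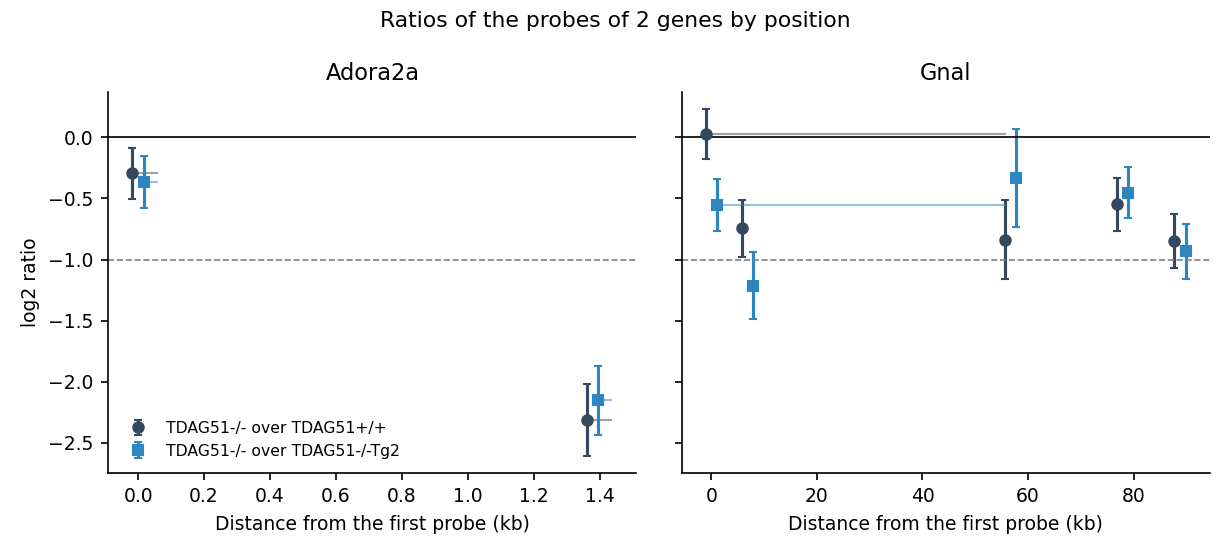
Log2 ratio of each probe of Adora2a (left) and Gnal (right) against the distance in kb from the first probe of the gene, for TDAG51-/- over TDAG51+/+ (dark circles) and over TDAG51-/-Tg2 (blue squares). Vertical bars are the scanner's error of 1 spot and thin horizontal lines the positions that a probe spans; the Adora2a probes sit at -0.30 and -2.31 against TDAG51+/+, and the first Gnal probe at 0.03 while the other Gnal probes lie between -0.85 and -0.55.

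Adcy5, which encodes the main adenylyl cyclase of the striatum, was lower by both of its probes, by less than 2-fold. The brighter probe read 338 in TDAG51-/- and 554 in TDAG51+/+ brain, and 370.5 in TDAG51-/- and 692 in TDAG51-/-Tg2 brain. The log2 ratios were -0.72 ± 0.22 and -0.90 ± 0.23, that is 1.64-fold and 1.87-fold lower. The adjacent probe read 149 against 203 and 166 against 277, with log2 ratios of -0.45 ± 0.22 and -0.74 ± 0.24. The probes differed from each other by 0.27 and 0.16, which was within the error of the difference (0.31 and 0.33). Against TDAG51-/-Tg2, the brighter probe passed 2-fold under 5 of 7 alternatives, with log2 ratios from -1.12 to -1.01, and the adjacent probe under 3 of 7, from -1.12 to -1.01.

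Ppp1r1b, which encodes DARPP-32, the protein kinase A target that inhibits protein phosphatase 1 and marks both classes of striatal projection neurons, stood apart from the other detected genes. Its single probe read 26967 in TDAG51-/- and 27025 in TDAG51+/+ brain, and 21854 in TDAG51-/- and 25089 in TDAG51-/-Tg2 brain. The readings of the TDAG51-/- brain thus lay 0.30 apart on the log2 scale between arrays, and the TDAG51-/- reading of the first array lay between the controls. The log2 ratios were -0.0031 ± 0.20 and -0.20 ± 0.20, neither beyond the error of a spot. This value depended on the normalization. Before normalization, the first array read 21479 in TDAG51-/- and 33037 in TDAG51+/+ brain, and the log2 ratios were -0.62 and -0.81 without normalization and -0.47 and -0.63 with median centring. By the authors' deposited log2 ratio they were 0.0077 and -0.17. Omission of the normalization also shifted the median of all probes to -0.19 and -0.25.

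Both phosphodiesterases were at least 2-fold lower. Pde10a encodes the dual-specificity enzyme that is highly enriched in striatal projection neurons and hydrolyses cAMP and cGMP. Its brighter probe (NM_011866, chromosome 17, 7696985 to 7697044) read 4307 in TDAG51-/- and 9409 in TDAG51+/+ brain, and 3866 in TDAG51-/- and 7934 in TDAG51-/-Tg2 brain. Its second probe, 4320 bases away, read 289.7 in TDAG51-/- and 674 in TDAG51+/+ brain, and 291 in TDAG51-/- and 689 in TDAG51-/-Tg2 brain. In contrast to Adora2a and Gnal, the Pde10a probes differed by only 0.09 and 0.21 in log2 ratio, less than the error of 0.34 and 0.33. The ratios were -1.13 ± 0.23 and -1.04 ± 0.23 for the brighter probe and -1.22 ± 0.24 and -1.25 ± 0.25 for the other, that is 2.05- to 2.37-fold lower over both probes and comparisons.

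Pde1b encodes a calcium- and calmodulin-dependent phosphodiesterase that is abundant in the striatum. Its probe (NM_008800, chromosome 15, 103518744 to 103518803) read 5144 in TDAG51-/- and 11991 in TDAG51+/+ brain and 4672 in TDAG51-/- and 9810.3 in TDAG51-/-Tg2 brain. The ratios of -1.22 ± 0.23 and -1.07 ± 0.23 corresponded to 2.33-fold and 2.10-fold lower levels.

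By the brightest probe of each gene, the regulators Rgs9 and Rasd2 followed Adora2a, although Rasd2 differed from Pde1b by less than a spot error in the second comparison. Rgs9 encodes a GTPase-activating protein whose striatal form shortens signalling from dopamine and opioid receptors. Its probe (NM_011268, chromosome 11, 109334536 to 109334595) read 1804 in TDAG51-/- and 5013 in TDAG51+/+ brain, and 1574 in TDAG51-/- and 5428 in TDAG51-/-Tg2 brain. The log2 ratios were -1.47 ± 0.25 and -1.79 ± 0.27, or 2.78-fold and 3.45-fold lower. Rasd2 encodes Rhes, a thyroid hormone-responsive small G protein of the striatum that dampens receptor-stimulated cAMP. Its probe (XM_204287, chromosome 8, 73765582 to 73765641) read 3336 in TDAG51-/- and 9714 in TDAG51+/+ brain, and 3445 in TDAG51-/- and 7566 in TDAG51-/-Tg2 brain, and the log2 ratios were -1.54 ± 0.25 and -1.13 ± 0.23, or 2.91-fold and 2.20-fold lower. For both genes, the TDAG51-/- readings lay below the controls, which adds no replicate to the ratios.

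**Figure D3:**
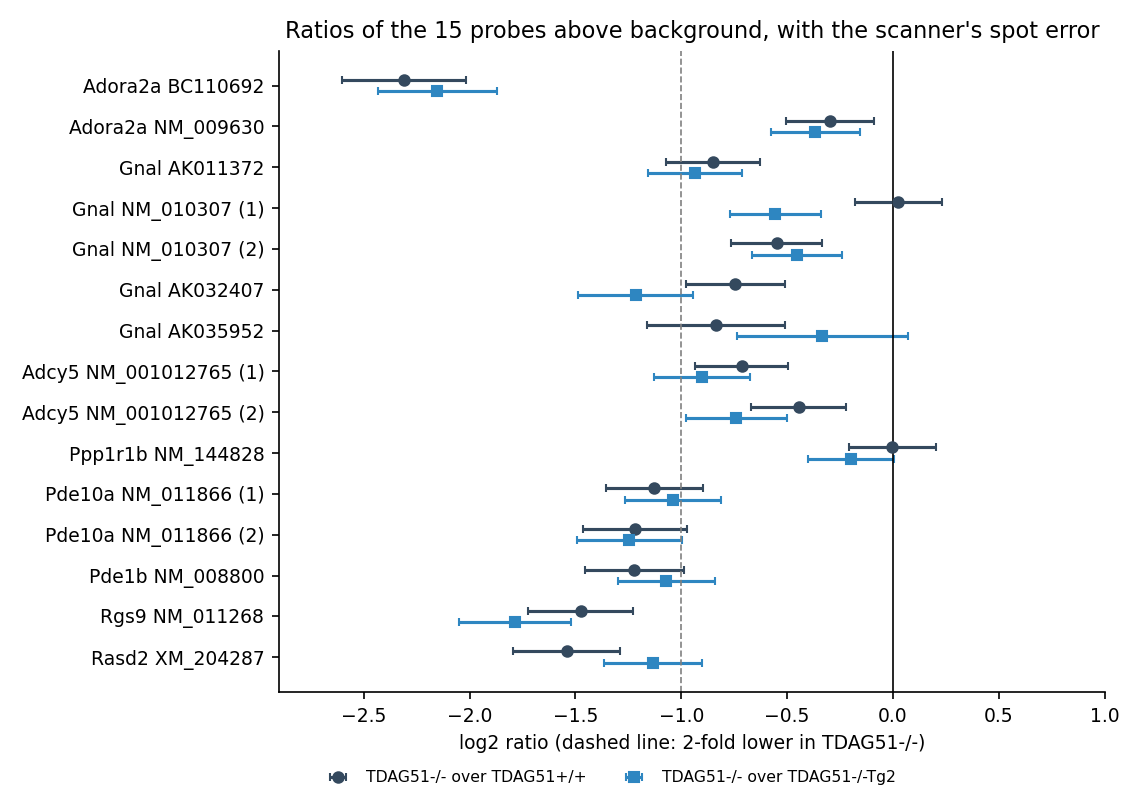
Log2 ratio of the 15 probes above background, TDAG51-/- over TDAG51+/+ (dark circles) and over TDAG51-/-Tg2 (blue squares), with the scanner's error of 1 spot as bars and a dashed line at 2-fold lower. Ratios range from -2.31 to 0.03 in the first comparison and from -2.15 to -0.20 in the second, and the Ppp1r1b bars reach 0 in both.

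Placed by the brightest probe of each gene among all genes above background, the genes of the group took up different positions. Other probes of a gene were not placed. The second Adora2a probe had log2 ratios of -0.30 and -0.37. The first Gnal probe had 0.03 and -0.56, while that of AK032407 had -0.74 and -1.21. In the comparison with TDAG51+/+, Adora2a was among the lowest 0.358% of genes, Rasd2 among the lowest 1.41%, Rgs9 1.62%, Pde1b 3.03%, Pde10a 3.74%, Gnal 7.03% and Adcy5 9.65%, while Ppp1r1b was at 50.6%, the middle of the distribution. Against TDAG51-/-Tg2, Adora2a was among the lowest 0.411%, Rgs9 0.757%, Rasd2 2.91%, Pde1b 3.46%, Pde10a 3.74%, Gnal 4.85% and Adcy5 5.27%, with Ppp1r1b at 33.3%. The neighbours Rasd2 and Rgs9 differed by less than their spot errors in the first comparison, as did Rasd2 and Pde1b and also Pde10a and Gnal in the second comparison, and Pde1b and Pde10a as well as Gnal and Adcy5 in both.

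**Figure D4:**
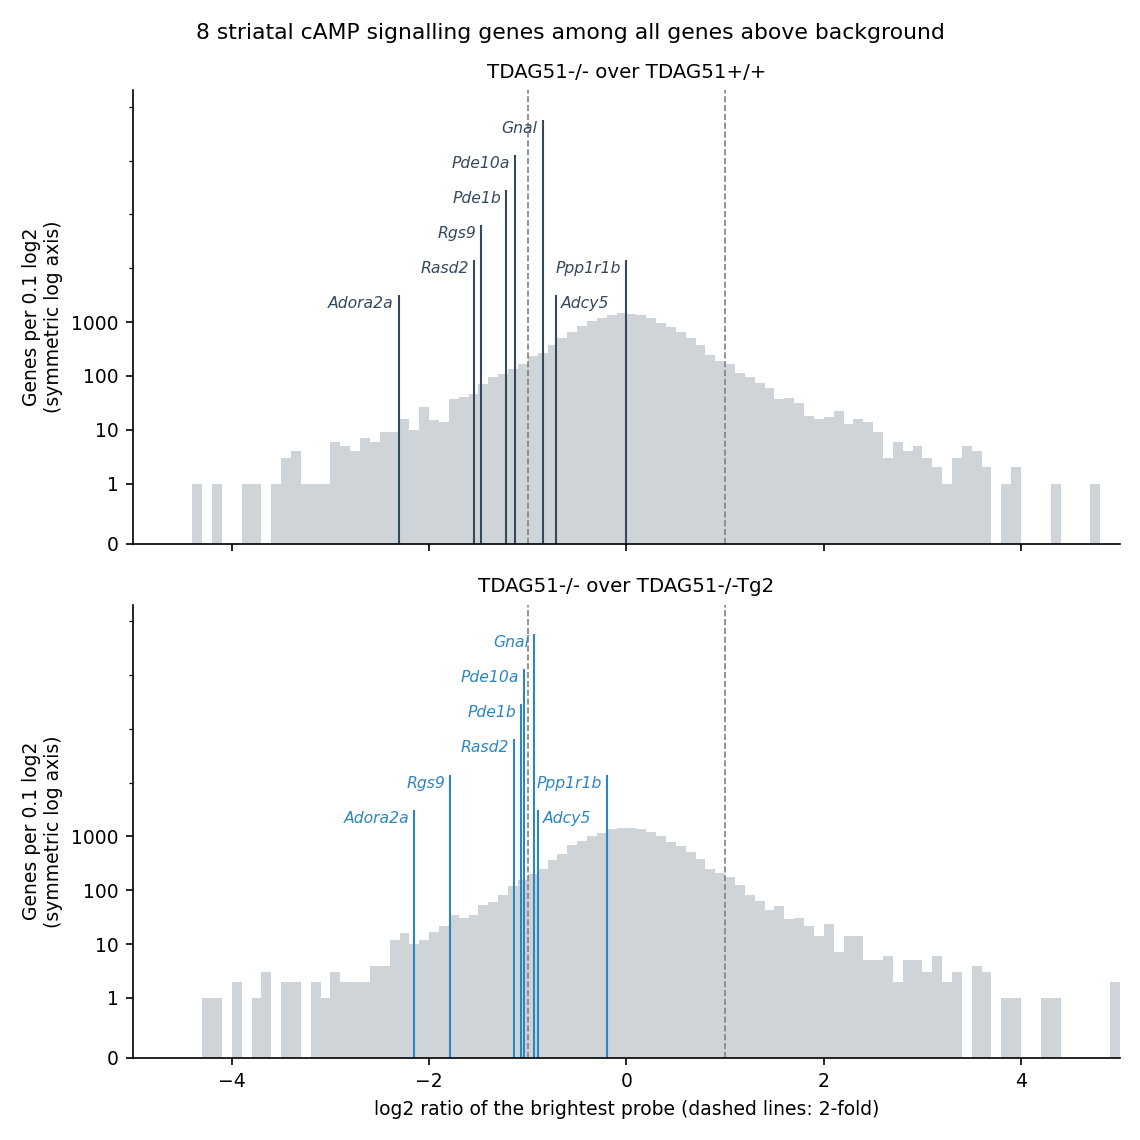
Number of genes per 0.1 of log2 ratio (symmetric log axis) for TDAG51-/- over TDAG51+/+ (17308 genes, top) and over TDAG51-/-Tg2 (17043 genes, bottom), with the 8 detected genes as labelled vertical lines whose height has no meaning and dashed lines at 2-fold. Each gene is shown by its brightest probe alone. Adora2a, Rasd2, Rgs9, Pde1b and Pde10a lie to the left of the lower dashed line in both, Gnal and Adcy5 just inside it, and Ppp1r1b near 0.

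Since each dye held the same kind of sample on both arrays, TDAG51-/- in Cy3 and a control in Cy5, levels could be compared between arrays within a dye. The 15 probes differed between the TDAG51-/- channels by at most 0.30 on the log2 scale, with a median absolute difference of 0.10, as did all 33257 probes (median 0.10, with 0.268% of probes at least 2-fold apart). Whether the same RNA was used on both arrays was not stated. Between TDAG51-/-Tg2 and TDAG51+/+ brain, the 15 probes differed by a median absolute log2 of 0.25, beside 0.27 for all probes, of which 7.11% were at least 2-fold apart. None of the 15 reached 2-fold. The level in TDAG51-/-Tg2 relative to TDAG51+/+ brain was -0.36 on the log2 scale for Rasd2, -0.29 for Pde1b, -0.25 for the brighter probe of Pde10a, -0.09 for the brighter probe of Adora2a, 0.11 for Rgs9 and 0.32 for the brighter probe of Adcy5. Among the brightest probes, these differences ranged from -0.36 to 0.32 around a median of -0.10, with no test of any of them.

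To place the group within its pathway, 78 other genes of cAMP and G-protein signalling were read, of which 76 had a probe and 75 were above background. Relative to TDAG51+/+ brain, 10 of the 75 were lower by 2-fold or more in TDAG51-/- brain, 6 were higher by as much, 59 lay within 2-fold, and the median log2 ratio was -0.27. Against TDAG51-/-Tg2, 8 were lower, 6 higher and 61 within 2-fold, with a median of -0.23. Over all genes above background, 4.9% were that low and 4.55% that high in the first comparison, and 4.08% and 4.42% in the second. The splits of the pathway genes depended on the scaling. Without normalization, 21 were lower and 5 higher in the first comparison and 25 lower and 4 higher in the second, and by the authors' deposited ratio 13 were lower and 7 higher in the second.

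Among the pathway genes at least 2-fold lower in both comparisons were 2 γ subunits of G proteins. Gng7, the γ subunit that pairs with Gαolf in the striatum, read 3766 in TDAG51-/- against 11043 in TDAG51+/+ brain and 3186 against 15258 in TDAG51-/-Tg2 brain, or 2.93-fold and 4.79-fold lower. Gng4 was 4.25-fold and 2.42-fold lower. Arpp21, a cAMP-regulated phosphoprotein of the striatum and limbic regions, read 7256 against 25555 and 7367 against 24957, or 3.52-fold and 3.39-fold lower. Pde2a, a cGMP-stimulated phosphodiesterase, was 2.69-fold and 2.82-fold lower, and Rgs14 was 2.04-fold and 2.14-fold lower. Rgs4, an RGS protein of cortex and striatum, read 13713 against 42499 and 16646 against 51649, a log2 ratio of -1.63 in both, of which the latter is a bound because the TDAG51-/-Tg2 spot was saturated and the difference can only be larger.

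The pathway genes at least 2-fold higher in both comparisons were other members of the same families. Rgs8, an RGS protein abundant in Purkinje cells of the cerebellum, read 38616 in TDAG51-/- against 6782 in TDAG51+/+ brain and 34455 against 16093 in TDAG51-/-Tg2 brain, or 5.69-fold and 2.14-fold higher. Rgs6 was 5.58-fold and 6.70-fold higher, Pde9a 4.01-fold and 2.55-fold, Pde3a 2.72-fold and 2.59-fold and Pkib, an inhibitor of protein kinase A, 2.13-fold and 2.06-fold higher. Omission of normalization brought Rgs8 to a log2 ratio of 0.49 against TDAG51-/-Tg2, and Pkib to 0.85 and 0.77.

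The closest relatives of the 9 genes were read beside them, each by its brightest probe alone. Adora1, the inhibitory adenosine receptor, had log2 ratios of -0.22 and 0.14, beside -2.31 and -2.15 for Adora2a. Gnas, which encodes Gαs, had -0.30 and -0.69. Of the adenylyl cyclases, Adcy3, which works with Gαolf in olfactory neurons, had -0.10 and -0.44 and Adcy6, the nearest relative of Adcy5, 0.27 and 0.09. Of the other calmodulin-dependent Pde1 phosphodiesterases, Pde1a had -0.56 and -0.71 by the brightest of 4 probes, beside -1.22 and -1.07 for Pde1b. Pde1c had 1.69 and 0.73 by the brightest of 6 probes. The other probes of both genes are not given here, and the authors list Pde1a among the genes at least 2-fold lower in both comparisons. Pde4b had -0.94 and -0.20. Of the partners and relatives of Rgs9, Gnb5, the β subunit that stabilizes RGS9, had -0.50 and -0.93, Rgs7 had -0.48 and -0.98, and Rasd1, the relative of Rasd2, had -0.53 and -1.26. With median centring Adcy6 had -0.16 and -0.33 and Adora1 -0.43 and -0.03, so their signs depended on the scaling. The differences between relatives were not tested.

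The group was read beside 13 other genes of striatal projection neurons, of which 12 had a probe and all 12 were above background. Of these, 11 were at least 2-fold lower in TDAG51-/- brain in each comparison (4.9% and 4.08% of all genes). The median log2 ratio was -1.40 against TDAG51+/+ and -1.72 against TDAG51-/-Tg2. The summed level of the 12 genes was 47667 in TDAG51-/- and 131352 in TDAG51+/+ brain, and 50959 in TDAG51-/- and 144874 in TDAG51-/-Tg2 brain. Foxp1, whose control spots were saturated, made up 52260 and 51282 of the control sums, which are therefore lower bounds. Among the brightest, Foxp1 was at least 2.63-fold and 2.70-fold lower, with saturated control spots, Penk, the enkephalin precursor of the indirect pathway, was 2.38-fold and 2.52-fold lower, and Meis2 had log2 ratios of -1.22 and -1.11. The exception, by the brighter of its 2 probes, was Drd2, the D2 dopamine receptor of the indirect pathway. That probe read 425 against 397 and 430.4 against 374, with ratios of 0.10 and 0.20, or -0.03 and -0.01 without normalization. Its other probe is not given here. Drd2 was named after its value was seen.

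Markers of other brain regions differed as well. Of 7 genes of cerebellar granule cells, all 7 were higher in TDAG51-/- brain. In each comparison, 6 were at least 2-fold higher (4.55% and 4.42% of all genes). The summed level of the 7 genes was 248294 against 72833 and 249486 against 74405. Cbln1 and Zic1 were saturated in TDAG51-/- brain on both arrays, so the sums in TDAG51-/- brain are lower bounds. Gabra6, one of the brightest and a GABA-A receptor subunit restricted to granule cells, had log2 ratios of 3.87 and 3.92. Of 7 genes of hindbrain neurons, 5 and 6 were at least 2-fold higher, with a summed level of 7372 against 1327 and 7667 against 1497. Hoxa4 of this list went the other way, with log2 ratios of -0.17 and -0.48. All of the markers in these lists were above background on both arrays, although Fat2 of the cerebellar list was not well above it in the control channel of the second array.

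Of the forebrain lists, 3 and 4 of 7 genes of cortical and hippocampal glutamatergic neurons were at least 2-fold lower in TDAG51-/- brain (4.9% and 4.08% of all genes). Their list had a summed level of 26078 against 38268 and 25474 against 45921. In each comparison, 4 of 6 olfactory bulb genes were at least 2-fold lower, with a summed level of 8579 against 66032 and 8687 against 48665. Single genes of both lists were higher, namely Cux2 of the cortical list, with log2 ratios of 0.66 and 0.61, and Eomes of the olfactory bulb list, with 0.72 and 1.09. Of the oligodendrocyte genes, Mbp, Mobp and Mog lay within 2-fold by their brightest probes. No ratio is given for Mag, whose brightest probe was saturated in both channels of both arrays. Its other probe is not given here, and the authors list Mag among the genes at least 2-fold higher in both comparisons. The part of these markers in the ratios of the 9 genes was not tested, and a difference between samples in the brain regions they contain cannot be told apart from a difference in the RNA of the cells.

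**Figure D5:**
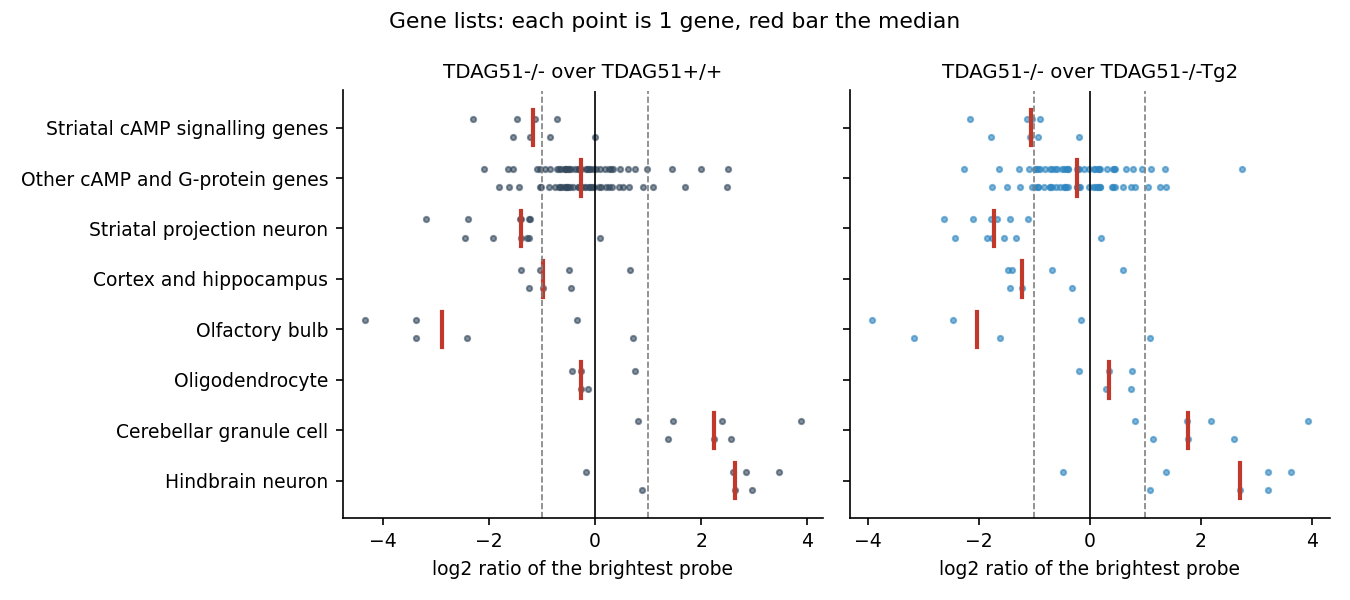
Log2 ratio of the brightest probe of each gene above background, by gene list, for TDAG51-/- over TDAG51+/+ (left) and over TDAG51-/-Tg2 (right), with red bars at the list medians and dashed lines at 2-fold. The medians are -1.17 and -1.05 for the striatal cAMP signalling genes, -0.27 and -0.23 for the other cAMP and G-protein genes, -1.40 and -1.72 for the other striatal genes and 2.24 and 1.77 for the cerebellar granule cell genes.

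Outside of all these lists, the 5 genes whose pair of ratios lay nearest to the medians of the group (Euclidean distance over the 2 comparisons) were Arhgap22, Ppm1j, Grm3, Cog7 and Frmd7. Their log2 ratios lay between -1.21 and -1.12 against TDAG51+/+ and between -1.08 and -1.01 against TDAG51-/-Tg2. The likeness rests on only 2 values for each gene, and 136 of the 16738 genes compared lay within 0.25 of the medians.

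RefSeq promoter windows on GRCm38.p6, from 250 bases before to 50 bases after a transcription start, were matched for 6 of the 9 genes (9 windows, among them 3 of Pde1b and 2 of Pde10a). They ranged from 44.0% to 79.0% in GC content (median 60.3%, beside 52.7% over all 32851 windows). The full cAMP response element, TGACGTCA, was searched on both strands because cAMP acts on transcription through it. It was present in 1 of the 9 windows, that of Gpr6, and in 1.79% of all windows. The shorter TGACG, which the full element contains, was likewise found in the window of Gpr6 alone, and in 20.8% of all windows. A match of letters does not show a site in use. The stretch of the Gpr6 window around the element (chr10:41072335-41072394, minus strand) is shown with the element in capitals, from 78 to 71 bases before the start. Since Gpr6 was not above background, the arrays gave no reading of it.
Gpr6 promoter: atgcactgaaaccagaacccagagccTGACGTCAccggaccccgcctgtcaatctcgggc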

How the data were processed

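The arrays were Agilent whole mouse genome arrays, 1 per comparison. Both were read as 2-colour arrays. The authors deposited the output of Agilent Feature Extraction 9.5.3.1, which holds, per the file headers, the mean intensity and median background intensity of each spot in both dyes, a log10 ratio of Cy5 over Cy3 with its error, and a p-value of the software's error model. A table of log2 ratios, Cy3 over Cy5, was deposited too. How that was normalized is not given in the sources used here. Probe positions are those of the file headers, on mm7.

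Control spots and those marked as outliers (375 and 300) were not used. In limma 3.58.1 (R 4.3.3, with version 1.17.8 of data.table), normexp correction (offset 50) was followed by loess within arrays and averaging of the spots of a probe. Levels in a channel were put on a scale shared by both arrays by quantile normalization of mean intensities. Summaries and plots used Python (3.11.15) with pandas 2.3.3, numpy 2.4.6 and matplotlib 3.10.9. The steps were tested on simulated data. A probe was counted where the scanner marked it well above background in at least 1 channel. In Cy3, the median intensity was 338 and 336 over a median background of 44.0 and 42.5, and in Cy5 it was 364 and 385 over 39.0 and 39.0. Precision is limited by having 1 array per comparison. A fold with a saturated brighter channel is a lower bound.

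Genes were named from the files and from RefSeq tables (32664 of 41104 probes, of which 22913 through an accession, 6649 through a symbol, 3102 through a synonym) and represented by the brightest probe. The text names all 9 genes with every probe, the pathway genes at least 2-fold apart in the same direction in both comparisons, 12 relatives of the 9 genes whatever their values, up to 3 of the brightest genes of a marker list and the 5 nearest genes. The 9 genes and all lists were chosen with earlier results of these data known. Alternatives were offset 0, the scanner's ratio, median centring, no normalization, the deposited ratio, outliers kept, background subtraction, other choices of probe, filter and threshold, and the scanner's p-value under 0.05.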

Additional observations from a re-analysis of the deposited data

How the results depend on the processing

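Under the alternatives, 50 recomputed counts and medians stayed near the values reported (counts within 1.5 times) and 6 did not. The median log2 ratio of the 8 genes moved to -1.42 with median centring and -1.57 without normalization against TDAG51+/+, and to -1.44 without normalization against TDAG51-/-Tg2. The count of pathway genes at least 2-fold lower moved from 10 to 21 without normalization in the first comparison, and from 8 to 25 without normalization and 13 by the deposited ratio in the second. The number of the 9 genes at least 2-fold lower was 4 at the least, with the dimmest probe in either comparison. Without normalization it was 6 in the first comparison and 7 in the second, the highest counts. At a 1.5-fold threshold, 7 genes were lower in either comparison. Of the single probe ratios, 180 recomputed values moved by less than the scanner's spot error and 44 by more, and no difference of 2-fold or more changed its sign. Against TDAG51+/+, the sign changed for Ppp1r1b (between -0.62 and 0.03) and the first Gnal probe (between -0.12 and 0.05). The cause of these shifts was not tested. No paired analysis was possible because each comparison has 1 array. The arrays cannot separate a dye effect from a difference between genotypes, and signal near background limited Gpr6 and the dimmer Gnal probes.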
